A study of Mus musculus with 13 samples.

Results

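Binding of SMAD3 and OCT4 was examined at 9 interferon response genes of the mouse, *Rsad2*, *Cmpk2*, *Ifit1*, *Ifit2*, *Ifit3*, *Isg15*, *Oasl2*, *Irf1* and *Irf7*, out of 21938 protein-coding genes in the annotation. The genes were chosen because the strongest loss of SMAD3 with doxycycline (dox) lies at *Rsad2*, so the values that chose them are those of the Dox+ and Dox- SMAD3 comparison, and that comparison is given here as a description without a test. Each gene was taken with its GENCODE vM21 span on mm10 plus 20 kb on each side. Windows of *Rsad2* and *Cmpk2* overlap, as do those of *Ifit2* and *Ifit3*, so the 9 windows join into 7 stretches of 393100 bp in all.

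The 13 libraries came from mouse embryonic fibroblasts (MEFs) on day 3. The cells were of a transgenic line on a mixed strain background, with a *Nanog*-GFP reporter that replaces 1 *Nanog* allele and, at 1 *Sp3* allele, a tetO-driven MKOS cassette (c-Myc, Klf4, Oct4 and Sox2 with mOrange) and rtTA under the CAG promoter. All groups, Dox- included, had been infected with a retrovirus for Smad3CA, a constitutively active SMAD3. Dox+ cells received 1 µg/ml dox per the labels, whereas the general reprogramming method of the study states a lower dose. SMAD3 was precipitated from Dox+ cells (n = 3) and Dox- cells (n = 3), OCT4 from Dox+ cells only (n = 3), and input DNA was sequenced for both (n = 2 each). No group without Smad3CA was analysed here, and nothing in the labels says whether replicates came from separate cultures, so the spread between them may be technical. The SMAD3 antibody is not stated to separate Smad3CA from the cell's own SMAD3.

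Interferon response genes are switched on when interferon receptors signal through JAK kinases to a complex of transcription factors that binds the interferon-stimulated response element (ISRE), a pair of GAAA blocks set apart by a short spacer. Most of their products act directly against viruses, and others, among them the IRF factors, carry the response further. Fibroblasts mount this response readily, and SMAD3, the factor that carries TGF-β signals to the nucleus, binds the short half-site CAGAC and often sits beside AP-1 at fibroblast enhancers.

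The promoters of 3 of these genes are shown because each holds an ISRE and a merged Dox- SMAD3 peak, called on the pooled replicates, overlapped each of them, from 250 bases before to 50 after the start. Each stretch is the 150 bases of the gene's strand that end just before the RefSeq gene start on GRCm38.p6, the assembly of mm10, at chr12:26456453-26456602 (minus strand) for *Rsad2*, chr19:34640739-34640888 (plus strand) for *Ifit1* and chr4:156200819-156200968 (minus strand) for *Isg15*. Capitals mark the ISRE matches, GAAA, any 2 bases, GAAA, on either strand.
Rsad2: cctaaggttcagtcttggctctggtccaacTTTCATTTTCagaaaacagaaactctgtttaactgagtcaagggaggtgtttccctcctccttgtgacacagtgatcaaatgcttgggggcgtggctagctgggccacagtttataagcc
Ifit1: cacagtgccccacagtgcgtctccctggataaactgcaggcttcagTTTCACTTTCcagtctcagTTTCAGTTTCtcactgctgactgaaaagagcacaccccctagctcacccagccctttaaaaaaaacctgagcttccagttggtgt
Isg15: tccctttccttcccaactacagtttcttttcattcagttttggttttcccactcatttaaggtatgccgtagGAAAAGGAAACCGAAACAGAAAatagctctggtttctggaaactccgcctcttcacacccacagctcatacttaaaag

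The *Rsad2* stretch holds 1 match, whose first base lies 120 bases before the start. *Ifit1* holds 2 matches, at 104 and 85 bases, and in *Isg15* 3 matches overlap within 1 run that begins at 78 bases. The merged Dox- SMAD3 peaks covered the matches of *Ifit1* and *Isg15*. Among replicate lists the *Ifit1* matches were covered by 0 Dox+ and 1 Dox- list, and the *Isg15* matches by 2 Dox+ lists and 1 Dox- list. No SMAD3 peak of any list reached that of *Rsad2*, since the peak at its start ended before it. Among 32851 RefSeq promoters, each taken from 250 bases before to 50 after the start, 3.44% hold an ISRE match, and 4 of the 9 genes do (*Rsad2*, *Ifit1*, *Ifit3* and *Isg15*). A match describes the letters only.

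The site of the strongest SMAD3 loss lies at the other end of *Rsad2*. Its central 300 bases, chr12:26441898-26442197 on the plus strand of GRCm38.p6, are shown with matches to the AP-1 motif TGANTCA in capitals.
Rsad2 site: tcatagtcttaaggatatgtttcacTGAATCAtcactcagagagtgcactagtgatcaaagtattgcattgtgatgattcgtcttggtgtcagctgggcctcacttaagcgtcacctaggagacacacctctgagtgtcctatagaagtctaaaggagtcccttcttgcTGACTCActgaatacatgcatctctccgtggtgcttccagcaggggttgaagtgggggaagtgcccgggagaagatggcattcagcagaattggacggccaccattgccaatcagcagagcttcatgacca

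These 300 bases lie past the 3′ end of the gene and hold 2 AP-1 matches, which start 823 and 679 bp past the annotated gene end. They hold 1 match to the interferon-gamma activated element GAS, TTCNNNGAA, that overlaps the AP-1 match farther from the gene, and no ISRE, CAGAC or octamer match. Tested regions were rebuilt here from the lists and are those present in at least 2 of the 6 SMAD3 replicate lists. A site is called listed where the authors' DiffBind comparison of Dox+ and Dox- put it in their table. Their limits were a false discovery rate up to 0.1 and an absolute fold change of at least 1. On the log2 scale, every listed site passes that fold change. A region in neither list may have missed either limit. The central 300 bases held an AP-1 match in 14.8% of the 904 sites listed as lower in Dox+, in 10.3% of the 1176 listed as higher and in 7.63% of the 11137 tested regions in neither list. In the same order, 38.9%, 37.6% and 73.2% of them lay within 1 kb of a transcript start. Whether position bears on the AP-1 shares was not tested.

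SMAD3 lists differed greatly in length between replicates, which bears on every count below. Replicate 1 had 420 peaks in Dox+ and 1656 in Dox-, replicate 2 had 23981 and 18588, and replicate 3 had 10374 and 4038. Replicate 1 of each group is therefore close to empty, and read depth per library was not analysed here. The fold enrichment and q-value that the peak caller gave to SMAD3 broad peaks did not follow position. Between merged and replicate peaks that overlapped each other by at least 50%, Spearman's rho of fold enrichment was -0.08 to 0.10 over the 6 replicate lists (97 to 9058 peaks), against 0.58 to 0.69 for OCT4 narrow peaks (83 to 934 peaks). Peak length in the same SMAD3 pairs gave 0.90 to 0.94. These values share reads and are a description, and the cause was not tested. SMAD3 peaks are therefore described by presence, position and length, and by the authors' mean log2 concentration of each group (normalised reads in the site, averaged over replicates) where a site is listed.

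All 9 windows held a merged Dox- SMAD3 peak, whereas 53.3% of all protein-coding gene windows did. Merged Dox+ SMAD3 peaks were found in 3 of the 9 windows, those of *Isg15*, *Irf1* and *Irf7*, against 57.6% of all windows. The one in the *Isg15* window lay on a start of the neighbouring *Agrn*, and none lay on the *Isg15* promoter. A merged Dox- peak without a Dox+ peak was thus present for 6 of the 9 genes, *Rsad2*, *Cmpk2*, *Ifit1*, *Ifit2*, *Ifit3* and *Oasl2*, against 4.24% of all windows. No window held a merged Dox+ peak without a Dox- peak. Since the genes were chosen on this contrast, nothing is read from these shares.

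Lists of single replicates varied more. The Dox+ lists reached 0, 4 and 5 of the 9 windows for replicates 1, 2 and 3, although they reached 3.31%, 67.3% and 52.3% of all protein-coding windows. The Dox- lists reached 3, 9 and 7 of the 9 windows, and 13.3%, 61.7% and 27.0% of all windows. Dox- replicate 1 thus reached fewer windows than Dox+ replicates 2 and 3. *Ifit2* and *Oasl2*, which had no merged Dox+ peak, had one in 2 and in 1 of the Dox+ replicate lists. Dox+ replicate 2 had the most peaks of any list and placed 8 in these windows, whereas Dox- replicate 2, with fewer peaks, placed 27.

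In bases, the windows were covered by 0, 6949 and 6130 bp of Dox+ peaks and by 643, 35155 and 9375 bp of Dox- peaks. The mean was 4360 ± 3798 bp (SD, n = 3) in Dox+ and 15058 ± 17944 bp (SD, n = 3) in Dox-. The groups overlapped, the difference of -10698 bp was smaller than the Dox- spread, and it shrank to -649 bp without Dox- replicate 2. Without Dox- replicate 1 it was -17905 bp. As a share of all bases that each list covered, the windows took 0%, 0.0405% and 0.0824% in Dox+ and 0.0847%, 0.261% and 0.437% in Dox-. On this scale the highest Dox+ list lay just below the lowest Dox- list, which was replicate 1 with 643 bp in the windows. Since the genes were chosen on this contrast, nothing is read from that order.

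**Figure D1:**
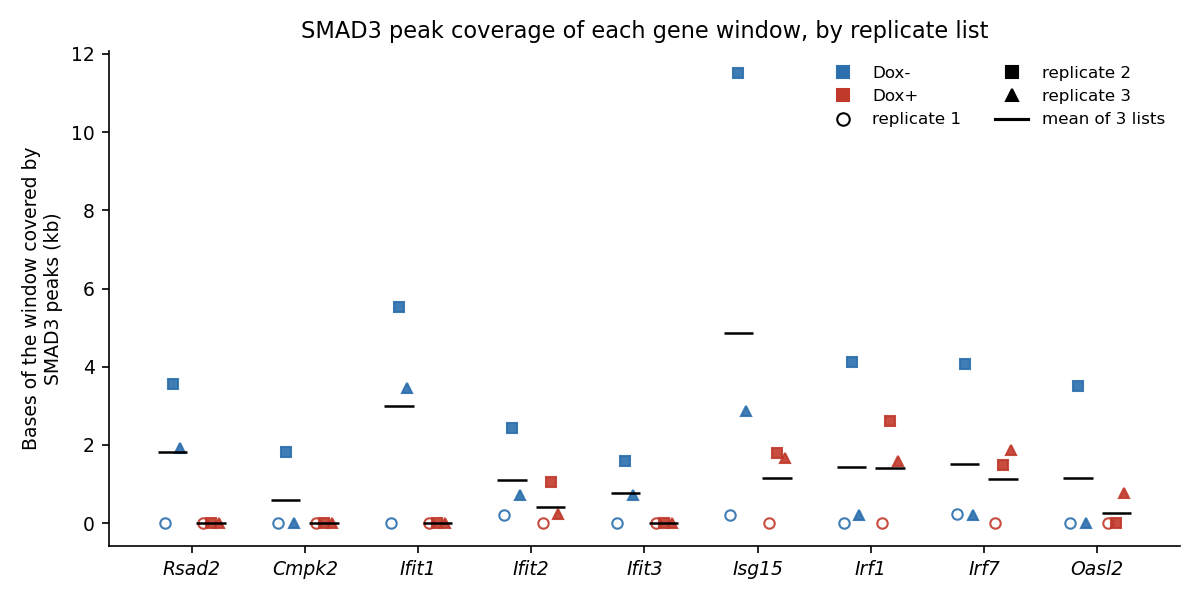
Bases of each gene window (kb, vertical axis) covered by SMAD3 peaks of the 3 Dox- lists (blue) and the 3 Dox+ lists (red), with the mean of 3 lists as a bar. *Rsad2*, *Cmpk2*, *Ifit1* and *Ifit3* stand at 0 in all 3 Dox+ lists, and *Irf1* and *Irf7* have similar means in both groups; windows of neighbours share peaks.

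Of 11 tested regions in the windows, 6 are listed as lower in Dox+, 0 as higher and 5 in neither direction. Across the genome 6.84% of 13217 rebuilt tested regions are listed as lower and 8.9% as higher. By genes, 5 of the 9 windows hold a site listed as lower against 4.86% of all windows, and 0 hold one listed as higher against 8.57%. The 6 sites have a median log2 difference of -2.56 between the authors' group means, beside -1.78 over all 904 sites listed as lower. They were also longer, with a median of 1833.5 bp beside 945 bp, and the authors' means went with peak length, as given at the end. Again these counts are fixed in part by how the genes were chosen.

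**Figure D2:**
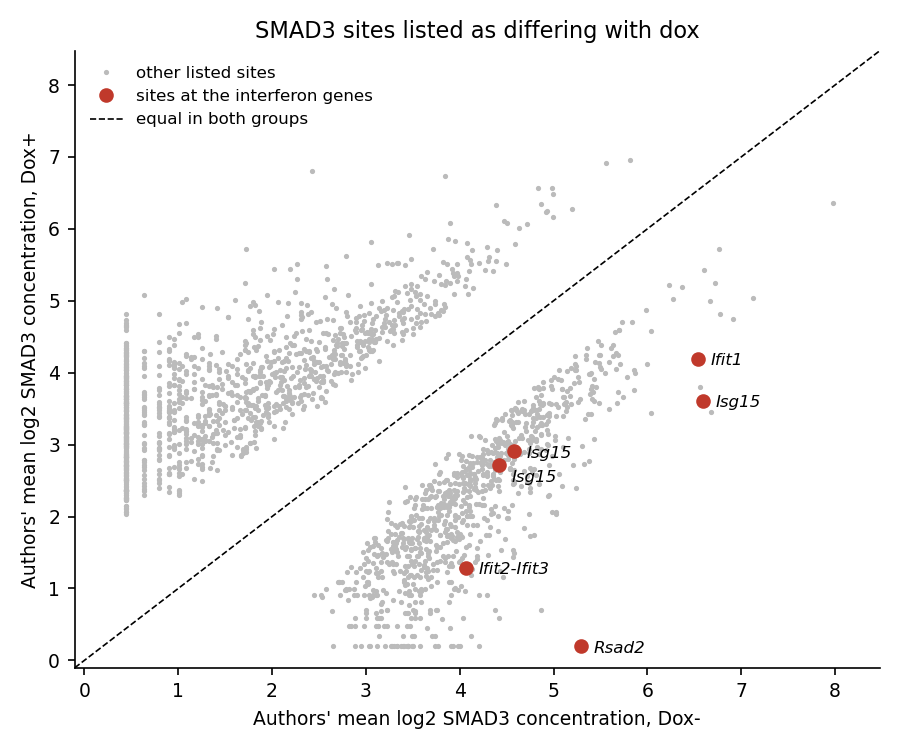
The authors' mean log2 SMAD3 concentration in Dox+ (vertical axis) against Dox- (horizontal axis) for the 2080 sites listed as differing, with the 6 sites at the interferon genes in red and equal values on the dashed line. The *Rsad2* site lies at the lowest Dox+ value in the table, 0.20, with a Dox- value of 5.29.

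*Rsad2* encodes viperin, an antiviral enzyme that makes a chain-terminating nucleotide, and *Cmpk2*, its neighbour, encodes a mitochondrial nucleotide kinase. *Rsad2* (ENSMUSG00000020641.16) spans chr12:26442746-26456452 on the minus strand, and *Cmpk2* (ENSMUSG00000020638.8) chr12:26469204-26479837 on the plus strand, so the genes point away from each other. None of the 4 Dox+ SMAD3 lists had a peak in their joined window. Dox- replicate 1 had none either, replicate 2 had 5 peaks covering 3979 bp, and replicate 3 had 1 peak of 1918 bp. The mean was 0 ± 0 bp in Dox+ and 1966 ± 1990 bp in Dox- (SD, n = 3), and the groups met at 0 because of Dox- replicate 1.

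The merged Dox- list placed 3 peaks in this window. One, chr12:26441007-26443150, ran 2144 bp across the 3′ end of *Rsad2*. Another, chr12:26456229-26456464, covered the *Rsad2* start, and the third, chr12:26469239-26469782, lay just inside *Cmpk2* on a coding exon. Dox- replicate 2 had all 3 of these places and 2 more inside *Cmpk2*, in an intron and near its 3′ end. Dox- replicate 3 had only the one at the 3′ end, so the 2 start peaks rest on 1 replicate list.

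Only the 3′ site was present in 2 replicate lists, so only it is among the rebuilt tested regions, as chr12:26440926-26443170. It is also the only site of this window in the study's table. Here the authors' mean log2 concentrations were 5.29 for Dox- and 0.20 for Dox+. Their difference of -5.10 is the most negative of all 2080 listed sites. The Dox+ value is the lowest of the table and is shared by 29 other sites, so the size of the difference depends on where that lowest value lies. Among those 30 sites the next highest Dox- value was 4.20. The next most negative difference at any site was -4.16, at a site 11295 bp upstream of *Ppp1r15b*.

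**Figure D3:**
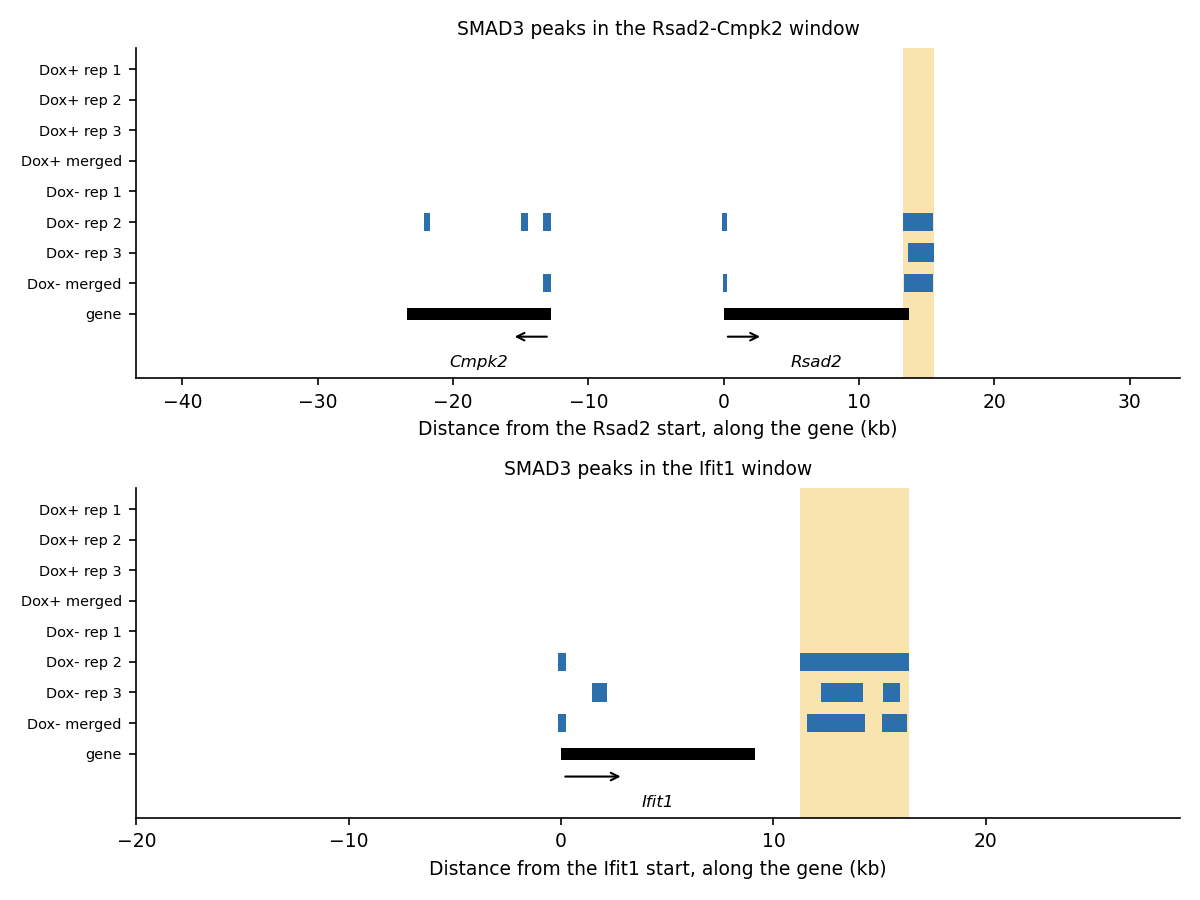
SMAD3 peaks of the 4 Dox+ and 4 Dox- lists (rows, red and blue) along the *Rsad2*-*Cmpk2* and *Ifit1* windows, by distance from the gene start along the gene (kb, horizontal axis), with genes in black, arrows for the direction of transcription and sites listed as lower in Dox+ shaded. No Dox+ list has a peak in either window, and the shaded site lies at or past the 3′ end of *Rsad2* and of *Ifit1*.

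The sites most like the *Rsad2* site, by Euclidean distance over both authors' means among 903 other sites listed as lower, have no gene of the interferon lists as their nearest start. The nearest was chr1:133119064-133120631, 11295 bp upstream of *Ppp1r15b*, with means of 0.71 in Dox+ and 4.86 in Dox-. It was followed by chr5:122146041-122146992, 8455 bp upstream of *Ccdc63*, with 0.60 and 4.42. The last was chr10:122768378-122769193 in an intron of *Ppm1h*, with 0.71 and 4.37. All 3 are shorter than the *Rsad2* site (1568, 952 and 816 bp against 2245 bp).

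The IFIT proteins bind viral RNA and hold back its translation. At *Ifit1* (ENSMUSG00000034459.8, chr19:34640871-34650009, plus strand) no Dox+ list had a peak, and the Dox- lists covered 0, 5540 and 3456 bp of the window. The Dox- mean was 2999 ± 2798 bp (SD, n = 3). Replicates 2 and 3 lay above every Dox+ list, and replicate 1 equalled them at 0.

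A merged Dox- peak of 353 bp covered the *Ifit1* start, and 2 longer ones lay downstream, chr19:34652475-34655180 and chr19:34655975-34657167. The start of *Ifit1bl2*, a related gene, falls in the same start peak, so the peak cannot be given to either gene alone. Dox- replicate 2 had 1 peak of 5162 bp over both downstream peaks, and replicate 3 had 2. The joined region, chr19:34652107-34657268, begins 2097 bp past the *Ifit1* end. It is listed as lower, with authors' means of 4.19 in Dox+ and 6.54 in Dox-, and it was the longest of the 6 listed sites. Unlike the *Rsad2* site it had a Dox+ mean well above the lowest of the table although no Dox+ list held a peak there.

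*Ifit3* (ENSMUSG00000074896.3, chr19:34583531-34588731, plus strand) showed a comparable layout on a smaller scale. The Dox+ lists covered none of its window and the Dox- lists 0, 1601 and 713 bp. Its listed site, chr19:34590191-34591327, begins 1459 bp past the gene end, was present in Dox- replicates 2 and 3, and had authors' means of 1.28 in Dox+ and 4.07 in Dox-. No SMAD3 list had a peak on the 300 bases of the *Ifit3* promoter, which holds 2 ISRE matches. That site also falls in the window of *Ifit2* and in those of *Ifit3b* and *Ifit1bl1*, so it counts once.

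*Ifit2* (ENSMUSG00000045932.12, chr19:34550694-34576419, plus strand) was the exception among the IFIT genes, since its start held SMAD3 peaks in Dox+ cells. Dox+ replicate 2 had a peak of 1050 bp there and replicate 3 one of 228 bp, both across the annotated start, whereas Dox+ replicate 1 had none. Dox- replicate 1 had a peak of 197 bp just inside the gene, replicate 2 had its nearest peak centred 1311 bp inside, and replicate 3 had none near the start. The merged Dox- list had a peak of 947 bp just inside the gene, chr19:34550934-34551880, whereas the merged Dox+ list had none in the window. A second RefSeq promoter of *Ifit2* was overlapped by this merged peak and by peaks of Dox- replicate 1 and Dox+ replicate 2. The joined region, chr19:34550032-34551081, was tested and is in neither list. Over the whole window the Dox+ lists covered 0, 1050 and 228 bp and the Dox- lists 197, 2437 and 713 bp, so the groups overlapped.

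*Isg15* encodes a ubiquitin-like protein that is attached to other proteins during the interferon response. It is a short gene (ENSMUSG00000035692.6, chr4:156199424-156200818, minus strand) and had the highest mean and merged Dox- coverage of the 9 windows. The Dox+ lists covered 0, 1788 and 1659 bp of its window and the Dox- lists 209, 11507 and 2863 bp. Of the single Dox- lists only replicate 2 put *Isg15* first, since *Irf7* had 237 bp in replicate 1 and *Ifit1* 3456 bp in replicate 3. The mean was 1149 ± 997 bp in Dox+ and 4860 ± 5908 bp in Dox- (SD, n = 3), and the groups overlapped through Dox- replicate 1. The merged lists covered 1.17% of the window in Dox+ and 16.1% in Dox-.

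At *Isg15* 3 sites are listed as lower, more than at any of the other genes. The longest, chr4:156195716-156199373, begins 50 bp past the 3′ end of *Isg15* and also covers a start of the neighbouring *Agrn*. Its authors' means were 3.60 in Dox+ and 6.59 in Dox-. The site on the *Isg15* promoter, chr4:156200372-156201247, had 2.91 and 4.58 and contains the 3 overlapping ISRE matches shown above. The third, chr4:156202354-156203775, lies 1535 bp upstream across a start of the predicted gene *AW011738* and had 2.71 and 4.42. Dox+ replicates 2 and 3 both had a peak at the longest site and at the promoter, and replicate 3 alone at the upstream site. Dox- replicates 2 and 3 had one at the longest and the upstream site, and replicates 1 and 2 at the promoter.

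**Figure D4:**
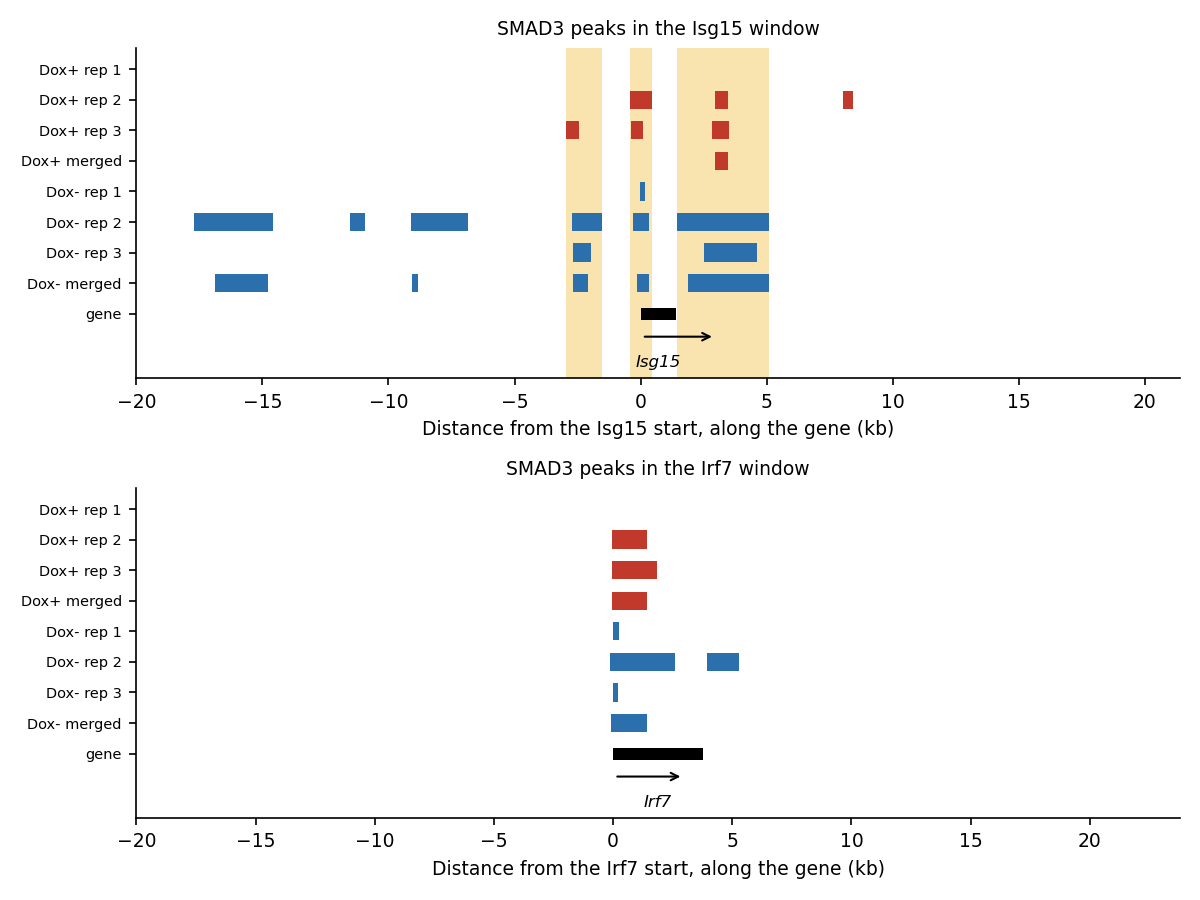
SMAD3 peaks of the 4 Dox+ and 4 Dox- lists (rows, red and blue) along the *Isg15* and *Irf7* windows, by distance from the gene start along the gene (kb, horizontal axis), with genes in black and sites listed as lower in Dox+ shaded. Peaks of both groups lie at the start of each gene, and the 3 shaded sites are all at *Isg15*.

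*Oasl2*, a member of the oligoadenylate synthetase-like family that restrains viral replication (ENSMUSG00000029561.17, chr5:114896936-114912234, plus strand), had replicate peaks in 1 list of each group. The Dox+ lists covered 0, 0 and 775 bp and the Dox- lists 0, 3502 and 0 bp of its window. Every Dox- replicate peak thus came from replicate 2, 1 of 813 bp at the gene start and 2 downstream, and the only Dox+ peak, in replicate 3, lay past the gene end. The tested region chr5:114913070-114915318, 835 bp past the *Oasl2* end, had 1 list of each group and is in neither direction. These peaks also lie near *Oasl1*, whose window overlaps that of *Oasl2*.

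At the 2 regulators SMAD3 lay on the gene start in both groups. *Irf1*, a factor induced by interferon that binds the same GAAA elements (ENSMUSG00000018899.16, chr11:53770014-53778374, plus strand), had merged peaks of nearly equal extent in both groups, 1887 bp in Dox+ and 1885 bp in Dox-. They lay at its start and farther upstream, where the tested region begins 5798 bp from the gene at its nearer end. The lists covered 0, 2625 and 1596 bp in Dox+ and 0, 4113 and 216 bp in Dox-, with means of 1407 ± 1323 bp and 1443 ± 2315 bp (SD, n = 3). The difference of -36 bp was far smaller than either spread.

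*Irf7*, the factor that amplifies the type I response (ENSMUSG00000025498.15, chr7:141262706-141266481, minus strand), had 1 merged peak in each group over its start, of 1482 bp in Dox+ and 1483 bp in Dox-. The lists covered 0, 1486 and 1872 bp in Dox+ and 237, 4077 and 209 bp in Dox-. Its tested region was the only one of the 11 present in all 3 Dox- lists, was present in 2 Dox+ lists, and is in neither direction. A second Dox- replicate 2 peak in this window lies on a coding exon of *Phrf1*, the next gene.

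OCT4 was not detected in the windows. None of the 9 windows held a peak in the merged OCT4 list of 2022 distinct regions or in any of the 3 replicate lists, while 5.78% of all protein-coding windows held a merged OCT4 peak. The nearest merged OCT4 peak lay 139 kb from *Rsad2*, 166 kb from *Cmpk2*, 383 kb from *Oasl2* and 451 kb or more from every other gene. The short OCT4 lists limit this statement, since replicate 3 held only 102 regions. In the study's table of OCT4 against SMAD3 in Dox+ cells, 1 site lay in the windows, at the *Irf7* start (chr7:141264655-141266526), with authors' means of 1.90 for OCT4 and 4.12 for SMAD3. Of 9903 rebuilt regions of that table, 6.64% are listed as higher for SMAD3.

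Of the 6 sites listed as lower, 4 lay across or within 5 kb past the 3′ end of a protein-coding gene, those of *Rsad2*, *Ifit3*, *Ifit1* and the longest *Isg15* site. This pattern was noticed after the positions were seen. The same was true of 16.6% of all 904 sites listed as lower, 27.0% of those listed as higher and 21.2% of tested regions in neither list. Of the 6 sites, 3, all at *Isg15*, were within 1 kb of a transcript start, as were 38.9% of all sites listed as lower and 73.2% of those in neither list. The tested regions at the starts of *Irf1*, *Irf7* and *Ifit2* are all in neither direction.

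Of the 5 motifs searched, 4 were found at the 6 sites listed as lower. In their central 300 bases, 1 of the 6 sites held an ISRE, the *Isg15* promoter site, beside 4.20% of all sites listed as lower. A CAGAC half-site was found in 2 of 6 centres, against 52.1%, and anywhere in the site in 6 of 6, where longer sites have more room. An AP-1 match was found in 1 of 6 centres, that of *Rsad2*, against 14.8%, and a GAS match in 1 of 6, also *Rsad2*, against 8.19%. Anywhere in the site, AP-1 and GAS matches were each found in 3 of 6. Among all 11 tested regions of the windows, 4 held AP-1, 7 held GAS and 11 held CAGAC anywhere. For matches anywhere in a site no genome-wide share was counted. None held the octamer ATGCAAAT that OCT4 binds, which 1.11% of centres listed as lower hold.

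Other genes of the interferon pathway were counted in the same way over a list of 67 names, of which 64 matched the annotation. The list was made with earlier results of these data known. Leaving out 3 genes whose windows overlap those above, 14 of 61 (23.0%) held a site listed as lower and 3 of 61 (4.92%) one listed as higher, beside 4.86% and 8.57% of all windows. The 11 distinct sites listed as lower had a median log2 difference of -1.66, from -2.11 to -1.12, and thus none reached the differences at *Rsad2*, *Ifit1*, *Ifit3* or the longest *Isg15* site. Of these 61 windows, 50 (82.0%) held a merged Dox- SMAD3 peak, 48 (78.7%) a merged Dox+ peak and 4 (6.56%) Dox- peaks alone. Among all windows these shares were 53.3%, 57.6% and 4.24%. The 4.86% of all windows with a site listed as lower thus counts many windows without a SMAD3 peak.

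**Figure D5:**
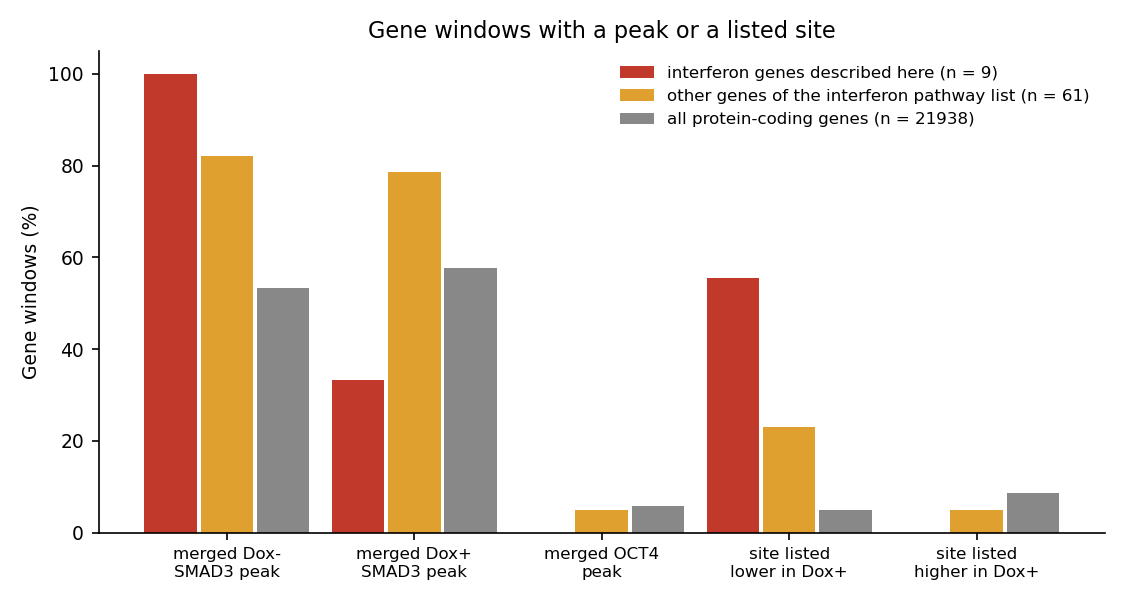
Share of gene windows (%, vertical axis) with a merged SMAD3 peak of each group, a merged OCT4 peak, or a site listed as lower or higher in Dox+, for the 9 genes (red), 61 other interferon pathway genes (yellow) and all protein-coding genes (grey). Sites listed as lower lie in 55.6%, 23.0% and 4.86% of the windows. The 9 genes were chosen on this comparison, the pathway list was made with earlier results of these data known, and some windows share a site.

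By role, over all 64 matched genes, a site listed as lower lay in 3 of 10 windows of receptors and transducers and 2 of 9 of sensors. It lay in 6 of 30 windows of antiviral effectors, 1 of 4 of feedback genes, 4 of 5 of antigen presentation and 0 of 6 of the IRF family. Among all protein-coding windows the share was 4.86%. The interferon receptors had listed sites at *Ifnar2* and *Ifngr2*, and none at *Ifnar1* and *Ifngr1*. The authors' means in Dox+ and Dox- were 2.85 and 4.58 at the *Ifnar2* site, and 2.63 and 4.69 at the *Ifngr2* promoter. Among the sensors of viral RNA, *Ddx58* (RIG-I) and *Dhx58* had sites listed as lower, with 3.11 and 4.77, and with 3.00 and 4.53. The window of the third RNA sensor, *Ifih1*, held a site listed as higher instead (3.08 and 0.44), but it lies on the start of the neighbour *Gca*. *Ikbke*, a kinase upstream of IRF3, also had a site listed as higher (2.89 and 1.69).

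Among the antiviral effectors, *Gbp2*, a guanylate-binding protein, had a site listed as lower at its start (2.56 and 4.16), and its window held merged Dox- peaks alone, as did those of *Gbp3* and *Gbp7*. *Bst2* (tetherin) had one nearby with 3.05 and 4.59. *Ifitm1* and *Ifitm2*, which block virus entry, share 1 site with 3.50 and 5.59. The window of *Ifi35* held 2 sites listed as higher, with 3.43 and 1.77 and with 3.23 and 1.71, the second on the start of *Rnd2*. The feedback inhibitor *Socs1* had 5.19 and 6.37 at its own start. In antigen presentation, 1 site at the *Psmb8* start (2.47 and 4.58) falls in the windows of *Tap1*, *Psmb8* and *Psmb9*, and *Nlrc5* had a site with 4.12 and 5.23 near the start of *Cpne2*.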

How the data were processed

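ChIP-seq libraries were sequenced by the authors and, per the labels and methods, trimmed with Trimmomatic 0.36, aligned to mm10 with Bowtie2 (given as 2.28), cleared of duplicates and used to call peaks with MACS2 2.1.0 against pooled inputs, for each replicate and for pooled replicates (merged lists). Each peak in the deposited lists has a −log10 q-value and a fold enrichment over input, on a linear ratio scale. SMAD3 lists hold broad peaks and OCT4 lists narrow peaks, whose repeated summit lines were collapsed. The authors' DiffBind tables give the mean log2 concentration of each group at sites with an FDR up to 0.1 that also passed the fold-change limit. They also hold the authors' fold changes, p-values and FDR, which were not used, and no value per replicate, so no test was run. Listing as lower or higher is the authors' call. Signal matrices were not used. Library depth was not used here, so no counting intervals were set.

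Peaks overlapping a gene window by at least 1 bp were counted, and the bases they cover summed, per list, with Python 3.11.15, pandas 2.3.3, numpy 2.4.6 and pysam 0.24.0. Tested regions were rebuilt by joining the 6 SMAD3 replicate lists and keeping regions in at least 2, which gave 13217 regions and included all 2080 listed sites. Overlap and motif steps were tested on simulated data. All 9 genes, every listed site in their windows, pathway genes with a listed site and the 3 sites most like the *Rsad2* site are named. Some pathway genes that this rule takes in are counted but not reported here by name. Genes and lists were chosen with earlier results of these data known. Alternatives were other flanks, overlap, q-value and replicate support, shorter lists, gapped peaks, shares of covered bases and leaving out replicates. Sequences are RefSeq's, of GRCm38.p6, and all 9 genes matched.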

Additional observations from a re-analysis of the deposited data

How the results depend on the processing

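No count of windows or sites moved by more than 1.5 times, and no value reversed. For covered bases the Dox- spread exceeds the difference itself, so staying within 1 SD says nothing of stability, and the values are given instead. As a percent of the bases each list covers, the Dox+ minus Dox- difference was -0.220 over all windows and -0.0397 in the *Rsad2*-*Cmpk2* window. Leaving out each replicate in turn gave -17905 to -649 bp over all windows and -2949 to -959 bp in the *Rsad2*-*Cmpk2* window. Both smallest differences came without Dox- replicate 2. Without replicate 1 of both groups, a setting added after the data were seen, they were -15726 and -2949 bp. Keeping only peaks with a q-value up to 0.01, or the 420 strongest peaks of each list, left no peak of any replicate list in the *Rsad2*-*Cmpk2* window (a difference of 0 bp), although the merged Dox- peaks there passed the q-value limit, and over all windows -1340 and -1019 bp. Both settings rest on broad-peak values that did not follow position. The q-value setting left 7 windows with a merged Dox- and 2 with a merged Dox+ SMAD3 peak, against 9 and 3. With gapped-peak blocks the differences were -3508 and -400 bp. Widening the flank to 50 kb gave 4 windows with a Dox+ peak and 7 listed sites. No paired analysis was possible because no result comes from a test. Between lists of the same replicate number the difference over all windows was -643, -28206 and -3245 bp for replicates 1, 2 and 3. The smallest lists limit all replicate means, and group means at listed sites carry no error.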

Other observations

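Window edges were compared with the merged lists only. Single replicate lists had peaks nearer an edge, such as the Dox+ replicate 2 peak chr11:53796549-53797084 in the *Irf1* window, which ends at chr11:53798374. The merged Dox+ peak farthest from a gene among those counted lay 5.82 kb from *Irf1*, and the first one not counted lay 27.8 kb from *Isg15*. For Dox- these were 14.8 kb from *Isg15* and 23.0 kb from *Ifit2*.

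The window of *Herc6*, an interferon-induced ligase gene of the pathway list, held merged Dox- SMAD3 peaks and no Dox+ peak, and those of *Ifih1* and *Tlr3*, both sensors of double-stranded RNA, held merged Dox+ peaks and no Dox- peak. Merged OCT4 peaks were found in the windows of *Ifnar2*, *Jak2* and *Ddx58*, 3 of the 61 genes (4.92%), beside 5.78% of all windows. At sites listed as differing, the length of the merged SMAD3 peak went with the authors' group mean (Spearman's rho 0.79 over 767 Dox+ and 0.80 over 660 Dox- sites, a description across sites of the same libraries), whereas its fold enrichment did not (0.08 and 0.02).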
